A study of Mus musculus with 6 samples.

Results

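The transcriptome of alveolar macrophages from saline-treated mice is described here from 3 of the 6 RNA sequencing libraries of a mouse study of lung fibrosis, the 3 that the labels name as controls. The members are the libraries of saline-treated mice, chosen by label, and every gene was ranked by the mean of these 3 columns. The mice were of the strain C57BL/6 and received saline through the trachea, and cells were washed from the air spaces (bronchoalveolar lavage) 2 weeks later. Red blood cells were lysed, and the remaining cells were placed in RPMI-1640 medium with 10% fetal bovine serum for 30 min, washed 5 times and lysed on the plate. Cells that did not stick in that time were therefore removed, and no cell sorting is named. The other 3 libraries came from bleomycin-treated mice, and none of their values is given below. They do bear on which genes are listed, because no listed gene is at 0 in all 6 libraries. Counts and medians over listed genes depend on them in that way. The labels name no genotype, sex or age, and they do not say whether the 3 libraries came from separate mice, so the spread given here may be partly technical. With 1 group there was no contrast to test, and all statements on genes are descriptions.

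Alveolar macrophages are the phagocytes that live on the air side of the alveolar wall. They are seeded around birth, mature under the cytokine GM-CSF through the lipid-sensing transcription factor PPARγ, and renew themselves in the adult lung by division. Their textbook task is to take up and break down spent surfactant, the lipid film that lowers surface tension, together with inhaled particles and dead cells, while inflammatory output stays low. Siglecf (a sialic acid receptor), Marco (a scavenger receptor), Chil3 (a chitinase-like secreted protein), Fabp4 (a fatty acid binding protein) and Car4 (a membrane carbonic anhydrase) were the markers used to check the label.

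Values are normalized read counts, that is, the reads of a gene divided by 1 scaling factor per library, and triplets of values are for replicates 1, 2 and 3 in that order. The libraries held 29899133, 27654799 and 29100186 reads on genes. A gene with 0 reads in all 3 libraries could have had an expected level of up to 3 reads in the 86654118 of all 3 libraries, and this limit covers counting error only. To compare levels between genes, reads were divided by exon length and scaled to a fixed sum over protein-coding genes, in the unit TPM. Exon length joins the exons of all annotated transcripts of a gene, whichever of them the cells used. A gene with long exons in unused transcripts is thereby set too low in TPM. Orders of genes per length depend on this choice, and no other length was tried. In such bulk samples fewer cells of a type and less RNA per cell cannot be told apart. Replicate 2 stood apart in the genes that varied most: of the 20 genes with the largest spread, 19 were highest in it. Each library's value is given, and the counts of variable genes are given with and without it.

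The libraries were broad in content, with a few very abundant transcripts. The table lists 22962 genes, of which 13004 had a mean of at least 10, 9840 of at least 100, 5036 of at least 1000, 500 of at least 10000 and 16 of at least 100000. At the other end, 2258 listed genes had 0 reads in every saline library. Genes without a read in any of the 6 libraries have no row, so these 2258 are not all the absent genes. Of 22028 annotated protein-coding genes, 15851 are listed. Protein-coding genes held 98.4% ± 0.178 of the total (SD, n = 3), the mitochondrial genome 2.72% ± 0.246, and cytosolic ribosomal protein genes 2.69%, 3.39% and 3.71%. The mitochondrial share includes 6 genes with few reads, whose levels are not interpreted below, so it may be too low. The 10 highest genes took 10.1%, 10.4% and 10.5% of the totals, the 100 highest 27.2% ± 0.708 and the 1000 highest 60.9% ± 1.08. The median level was 26.5 over all listed genes and 320.2 over the 15851 listed protein-coding genes, of which 31.5% reached a mean of 1000. These shares are the background against which the gene lists below can be read.

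Lyz2, which encodes lysozyme, the enzyme that cuts bacterial cell walls, was the most abundant gene by read count and per length, with 667312, 808309 and 724984. It alone took 2.44% of the reads on average, and its level per length was 55428 ± 4814 TPM (SD, n = 3). By read count it was followed by Fth1, the heavy chain of ferritin, at 332297, 495345 and 502549, and by Actb, beta-actin, at 349165, 453249 and 422192. Fth1 was lowest in replicate 1, and the ranges of Fth1, Actb and the fourth gene, Chil3, overlapped, so that the order of these 3 genes by read count does not exceed the spread between libraries. The next places were held by mt-Co1, a subunit of respiratory complex IV, Eef1a1, a translation elongation factor, and the intermediate filament vimentin (Vim). Psap, the precursor of the saposins that help lysosomal enzymes reach sphingolipids, stood at 177925, 175439 and 184139.7. The lysosomal protease cathepsin S (Ctss) stood at 157653, 148774 and 158177. Both were among the evenest of the abundant genes, with coefficients of variation (SD over mean) of 2.5% and 3.41%.

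The rest of the 30 highest genes fell into a few kinds. Membrane, cell surface and secreted proteins of phagocytes included Cd9, a tetraspanin, Ccl6, a CC chemokine, Mpeg1, the pore-forming protein perforin-2, and Laptm5, a lysosomal membrane protein. Itgb2, the beta chain of leukocyte integrins, and B2m, the light chain of MHC class I, belonged to this kind as well. Ccl6, a secreted signal, had 110591, 141354 and 131427, and Mpeg1 had 114782, 96581 and 98503. Lysosomal proteases added Ctsd and Ctsb, and lipid metabolism added Lpl, lipoprotein lipase, at 91526, 98503 and 98601. Cytoskeletal and folding proteins were Tmsb4x, Lcp1, Anxa2, Hspa8 and Hsp90ab1. Ucp2, an inner mitochondrial membrane carrier, Sgk1, a serum-regulated kinase, mt-Cytb, mt-Nd1, mt-Nd2 and mt-Nd4, and a feature within the ribosomal RNA repeat (CT010467.1, 59936, 63202 and 110220.0) made up the remainder. The ribosomal RNA feature was highest in replicate 3, where the 3 features of that repeat took 0.545% of the library against 0.316% and 0.326% in replicates 1 and 2.

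**Figure D1:**
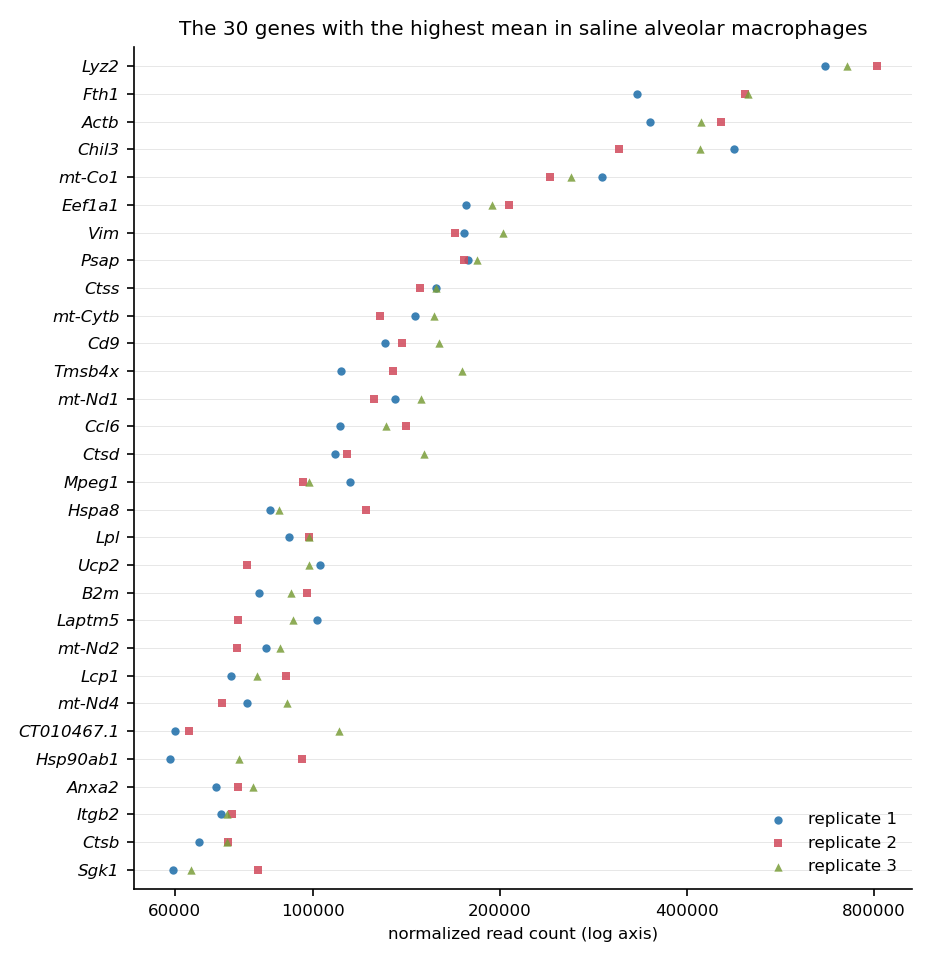
Normalized read count (x axis, log scale) of the 30 genes with the highest mean, 1 point per saline library. Lyz2 lies above all other genes in every library, and Fth1, Actb and Chil3 overlap in the next places.

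Per length, the leading nuclear genes were ordered somewhat differently. Lyz2 was followed by Chil3 at 24661 ± 6053 TPM, Actb at 15120.3 ± 1499 TPM and Fth1 at 12629.8 ± 2159 TPM. The ranges of mean ± SD of Actb and Fth1 overlapped on this scale. The place of a gene in this order also depends on the joined exon length, and Fth1 or others may stand too low for that reason. Next came Ctss at 11362 ± 823, B2m at 10485 ± 685 and the actin-binding peptide Tmsb4x at 10078 ± 1676 TPM, which are neighbours whose spreads touch. Eef1a1, Ear2, Ccl6, Cd9, Psap, the ribosomal protein Rplp1, Ctsd and the Fc receptor gamma chain Fcer1g completed the 15 highest, between 7683 and 4087 TPM. Ear2, an eosinophil-associated ribonuclease, reached this group at 7217 ± 1164 TPM although it ranked 44th by read count, because its exons are short. Parts of some of these genes recur in transcripts of other annotated genes: 60% of the 50-base windows of Rplp1, 41.5% of those of Ear2, 40.4% of Eef1a1, 32.4% of Ctsd and 26.9% of Chil3 are shared in this way. Their levels are less certain for that reason. Eef1a1 and Ctsd also share exon bases with an overlapping annotated gene, so their shared windows may include those of their own locus.

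All 5 markers were present in every library, but they differed widely in how evenly. Siglecf (ENSMUSG00000039013, chromosome 7, 43351341 to 43359531) had 16187, 12651 and 14902, a mean of 14580.1 ± 1790.0 (SD, n = 3). Chil3 (ENSMUSG00000040809, chromosome 3, 106147554 to 106167564) had 476558, 311298 and 419785. Car4 (ENSMUSG00000000805, chromosome 11, 84957786 to 84966044) had 27864, 41101 and 31857, highest in replicate 2. The highest library held 1.28, 1.53 and 1.48 times the lowest for these 3 markers. Fabp4 (ENSMUSG00000062515, chromosome 3, 10204088 to 10208576) had 3444, 5903 and 4932, lowest in replicate 1. Marco (ENSMUSG00000026390, chromosome 1, 120474538 to 120505024) had 9576, 41642 and 19236, so that replicate 2 held 4.35 times the level of replicate 1. Marco was the least even of the 5, with a coefficient of variation of 70% against 12.3% for Siglecf. Per length, Chil3 was far above the others, and Car4 with 1698 ± 323 TPM and Marco with 1203 ± 839.9 TPM did not differ beyond their spread. Siglecf had 522 ± 85 TPM and Fabp4 105 ± 24.5 TPM, an order that may depend on the exon length used.

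The 250 bases before the annotated start are shown for 4 of the 5 markers, because the check of the label rests on these genes and their promoters differ in CpG content and motifs. They are from RefSeq on GRCm38.p6, 5′ to 3′ on the strand of the gene, and Fabp4 is named only. Capitals mark a match to GAGGAAG, the core bound by the myeloid factor PU.1, or to CCGGAAG, the core bound by other ETS factors, on either strand.
Siglecf (chr7:43351091-43351340, plus strand): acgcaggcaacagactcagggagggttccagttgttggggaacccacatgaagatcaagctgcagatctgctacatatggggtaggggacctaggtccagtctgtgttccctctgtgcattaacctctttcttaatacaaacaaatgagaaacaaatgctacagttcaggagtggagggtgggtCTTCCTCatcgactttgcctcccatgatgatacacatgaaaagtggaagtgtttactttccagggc
Marco (chr1:120505025-120505274, minus strand): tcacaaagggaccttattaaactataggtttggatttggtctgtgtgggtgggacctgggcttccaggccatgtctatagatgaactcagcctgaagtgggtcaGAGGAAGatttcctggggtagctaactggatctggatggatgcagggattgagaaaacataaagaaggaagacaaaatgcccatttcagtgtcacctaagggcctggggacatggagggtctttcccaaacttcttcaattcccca
Chil3 (chr3:106167565-106167814, minus strand): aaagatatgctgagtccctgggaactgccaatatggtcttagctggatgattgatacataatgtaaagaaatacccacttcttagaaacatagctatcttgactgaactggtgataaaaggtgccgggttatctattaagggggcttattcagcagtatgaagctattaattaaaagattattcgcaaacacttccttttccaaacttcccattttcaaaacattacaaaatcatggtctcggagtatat
Car4 (chr11:84957504-84957753, plus strand): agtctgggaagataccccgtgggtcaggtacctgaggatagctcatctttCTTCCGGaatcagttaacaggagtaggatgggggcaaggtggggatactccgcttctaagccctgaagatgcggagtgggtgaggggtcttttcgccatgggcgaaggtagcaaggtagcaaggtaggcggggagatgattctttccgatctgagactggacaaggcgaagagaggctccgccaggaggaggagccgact
The GAGGAAG core occurs once in Siglecf, on the opposite strand and starting at -66, and in Marco on the same strand, starting at -146. The CCGGAAG core occurs in Car4 on the opposite strand at -200, and neither string is in the Chil3 window. A match to GAGGAAG is common: it was found in 10.6% of the 32851 promoters of the same length in the reference table, and CCGGAAG in 6.91%. CpG pairs numbered 2, 0, 3 and 11 in the windows of Siglecf, Marco, Chil3 and Car4.

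Promoter content differed by level over the 9877 listed protein-coding genes that have a single start in the table. The median number of CpG pairs in the 250 bases was 5 for genes with 0 reads, 7 for means above 0 and under 10, 11 from 10 to under 100, 16 from 100 to under 1000, 18 from 1000 to under 10000, and 15 for means of 10000 and above. CCGGAAG, on either strand, was found in 3.51% of promoters of genes at 0 reads and in 17.3% of those with means from 1000 to under 10000. TATAAA ran the other way, from 13.6% at 0 reads to 5.24% at 1000 to under 10000, and was again more frequent, at 10.2%, in the 313 promoters of the most abundant genes. GAGGAAG varied little, between 10.2% and 12.5% over the 6 classes. TCACGTGA, a string recognised by lysosomal gene regulators of the MiT family, was in 0.675% of promoters at 0 reads and in 3.19% of those of the most abundant genes. The classes differed in base composition as well as in level, and no share was tested. A gene at 0 reads here is listed only because a bleomycin library had reads of it. That class therefore does not stand for all genes without reads.

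Genes typical of resident alveolar macrophages were almost uniformly abundant. Of the 28 genes in that list, 27 had a mean of at least 1000 and 21 of at least 10000, with a median of 20601 against 320.2 over protein-coding genes. Many members are in the list because they are known to be high in these cells, so the count describes the preparation and is no independent evidence. After Chil3 came Cd9, Lpl and Abcg1, the last a cholesterol exporter with 62797, 68811 and 54398. Atp6v0d2, a subunit of the lysosomal proton pump, had 57277, 51947 and 54342. The mannose receptor Mrc1 had 64219.9, 48190.4 and 47687, and the integrin Itgax (CD11c) had 59925, 48582 and 44236, both highest in replicate 1. The keratins Krt79 (21237, 28417 and 24557) and Krt19 (17693, 25172 and 25286), better known from epithelia, were members as well. The exception was Ear10, a ribonuclease at 9.81, 4.35 and 8.48, and 39.9% of its windows occur in another annotated gene. Within the list Marco and Fabp1 spanned a factor of 2 or more between libraries, as did 4.58% of all genes with a mean of at least 100.

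The eosinophil-associated ribonucleases and the chitinase-like genes were each led by 1 or a few members. Ear2 had 53738, 42628 and 60191, Ear1 18292, 14269.7 and 22894, and Ear6 345, 684 and 613. Of the windows of Ear1, 57.4% are shared, so that reads of Ear1, Ear2 and Ear10 may not be fully separated. Among chitinase-like genes, Chil3 was followed at a distance by Chil4 with 31.4, 17.4 and 17 and Chil1 with 3.92, 40.2 and 5.3. Chil5 had 0, 0 and 2.12, and Chil6 and the acidic chitinase Chia1 had 0 reads in every library.

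The receptors through which these cells are made and kept were present at high level. In the list of growth factor receptors 18 of 20 genes reached a mean of 1000. Both chains of the GM-CSF receptor were the highest by read count, Csf2rb with 23697, 26711 and 16068 and Csf2ra with 22837, 17019.6 and 19757. Csf1r, the receptor for M-CSF and IL-34, had 11789, 15544 and 10497, the TGF-beta receptor Tgfbr2 had 13171, 12592 and 10080.1, and its partner Tgfbr1 had 11958, 8941 and 8947. The IL-1 receptors were the low end, Il1r2 at 86.3, 93.4 and 118 and Il1r1 at 126, 64.1 and 52. Csf2, the gene for GM-CSF itself, had 0, 0 and 1.06.

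Of 34 transcription factors of the lineage, 30 had a mean of at least 1000. The highest were Bhlhe40 (36810.3, 29619 and 38305), known to keep alveolar macrophages proliferating, and Spi1, which encodes PU.1 (20035, 21872 and 23173). Cebpb, a factor that alveolar macrophages need, had 14425, 27949 and 20399, lowest in replicate 1, and Egr2 had 11698, 21971 and 12942, highest in replicate 2. Pparg had 10452, 7097 and 8719, with its partner Rxra at 10893, 9548 and 9597. At the low end were Maf with 17.7, 25 and 21.2, Runx3 with 35.3, 10.9 and 31.8 and Smad3 with 0.981, 34.8 and 5.3.

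General macrophage genes were led by Lyz2, Laptm5, Sirpa and Cd68. Sirpa, an inhibitory receptor for CD47, was even across libraries with 63406, 63782 and 61521, and Cd68 had 45026, 46626 and 49701. Of 17 members, 14 reached a mean of 1000. The exceptions included Itgam (CD11b), with 64.7, 159 and 53, and Aif1 (IBA1), with 7.84, 2.17 and 27.6. Low Itgam beside high Itgax is the surface pattern by which alveolar macrophages are usually recognised, although 66.3% of the windows of Itgam occur in another annotated gene and the effect of this on its count was not tested. Lyz1, the near copy of Lyz2, had 191, 199 and 248.

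Genes that mark macrophages of other tissues were mostly low, with exceptions. In the peritoneal list 1 of 8 reached a mean of 1000: Fn1, fibronectin, at 57326, 37385 and 31266. Gata6, the factor that defines peritoneal macrophages, had 0, 0 and 6.36, Lbp had 0, 0 and 7.42, and Selp had 0 reads. Timd4, which marks long-lived macrophages of several tissues, had 41.2, 5.43 and 19.1. In the liver list Id3 (4067, 1345 and 4964) and Id1 (863, 1871 and 2504) were the members above a mean of 100, and the Kupffer cell genes Vsig4 (2.94, 0 and 12.7), Cd5l (0.981, 7.61 and 0) and Cd163 (2.94, 5.43 and 0) were near 0. Folr2 had 0 reads, with 52.6% of its windows shared, and Clec4f was not listed. Id1 was lowest in replicate 1 and Id3 in replicate 2, so these related genes did not follow one another.

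Among genes of brain macrophages 1 of 8 reached a mean of 1000. The purine receptor P2ry12 had 633, 553 and 418. Tmem119 had 1.96, 0 and 0, Sall1 had 0, 5.43 and 0, and Siglech had 0 reads in every library. Cx3cr1, the fractalkine receptor, had 12.7, 13 and 8.48. In the spleen list the heme oxygenase gene Hmox1 (21670.4, 38226 and 45015) and Treml4 (1423, 4315 and 2662) were above 1000, both lowest in replicate 1. Spic, the factor of red pulp macrophages, had 15.7, 103 and 39.2, highest in replicate 2, and Vcam1 had 4.9, 4.35 and 2.12. Within the interstitial list, H2-Eb1 (6734, 5846 and 4445) and Apoe (2414, 2063 and 2479) were above 1000. The 3 chains of complement C1q were low: C1qa had 113, 48.9 and 259.8, C1qb 101, 33.7 and 143 and C1qc 97.1, 23.9 and 156, each lowest in replicate 2 and highest in replicate 3. Lyve1 had 2.94, 1.09 and 0.

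**Figure D2:**
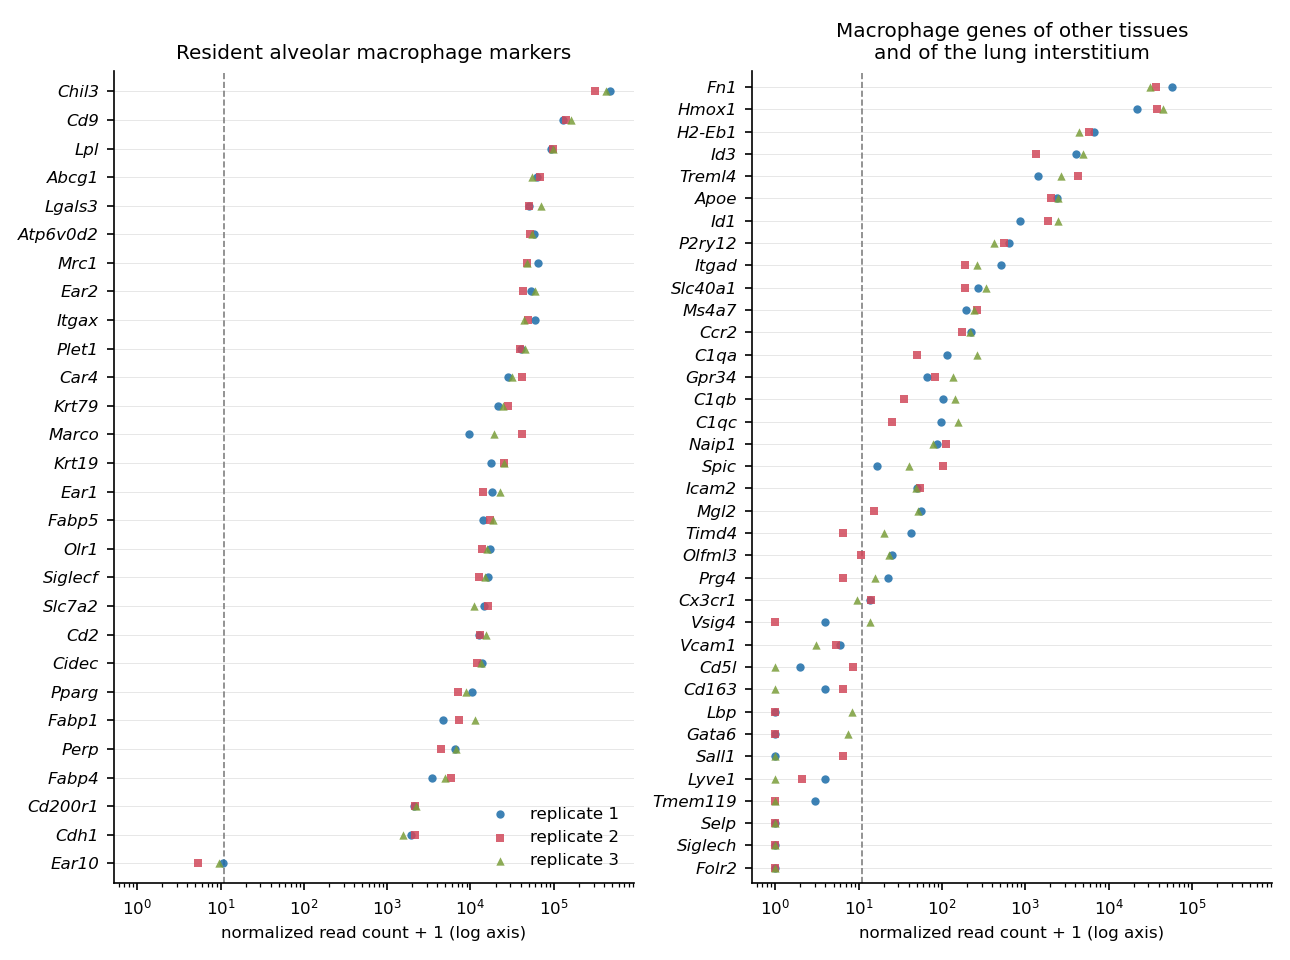
Normalized read count + 1 (x axis, log scale) in the 3 saline libraries, for 28 genes typical of resident alveolar macrophages (left) and for genes of macrophages elsewhere (right). The dashed line marks a count of 10, and all resident genes but Ear10 lie far to its right while the genes on the right span the whole scale.

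Genes of lipid uptake and breakdown were abundant. In the uptake list 8 of 10 reached a mean of 1000, led by Lpl, Lrp1, Olr1 and Cd36. Lrp1, an endocytic receptor, had 38572, 25783 and 24825, highest in replicate 1. The oxidised lipoprotein receptor Olr1 had 17054, 13784 and 15866, and the fatty acid transporter Cd36 had 12350.2, 11524 and 12698. Vldlr was the member under 10, with 0, 0 and 2.12. Surfactant lipid breakdown showed 10 of 13 at 1000 or more: after Psap came the lysosomal acid lipase Lipa with 29682, 28674 and 31386, the cholesterol ester hydrolase Nceh1 with 16882, 15212 and 13981 and the ceramidase Asah1 with 14422, 14672 and 13722. The lysosomal phospholipase Pla2g15 had 14528, 14669.5 and 13167. In none of these 4 genes did the highest library exceed the lowest by more than 1.21 times.

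The fatty acid binding proteins that were present were Fabp5, Fabp1 and Fabp4. Fabp5 had 13955, 16946 and 18722 and Fabp1, best known from the liver, had 4709, 7296 and 11408. Both were lowest in replicate 1 and highest in replicate 3, whereas Fabp4 was highest in replicate 2. Fabp1 had 1381 ± 519.7 TPM, Fabp5 459 ± 39.9 TPM and Fabp4 105 ± 24.5 TPM. These levels rest on the joined exons of all annotated transcripts, so the order of these genes per length is not settled. By read count Fabp5 was the highest of them in each library. Fabp3 had 0, 2.17 and 13.8, Fabp2, Fabp7 and Fabp12 had 0 reads in every library, and Fabp6 was not listed.

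Storage and export of lipid were represented by a few high genes. Plin2, the coat protein of lipid droplets, had 36159, 42174 and 43773, and Cidec, which fuses droplets, had 13597, 12097 and 13380.4. Soat1, which esterifies cholesterol, was even at 9362, 9472 and 9335, and the acyl-CoA synthetase Acsl5 had 4943, 6246 and 5784. Plin4, Plin5 and Cidea, typical of adipose tissue and muscle, were each under a mean of 10. In sterol export Abcg1 was followed by the lysosomal cholesterol carriers Npc2 (16254, 17145 and 20589) and Npc1 (10833, 7814 and 8548), and by Abca1 (4561, 3352 and 3045). Apoc2 had 0 reads, but 78.3% of its windows are shared with other genes. Of lipid-sensing regulators 9 of 12 reached 1000, including Pparg, Rxra, Insig1 (5123, 3514 and 5422) and Srebf2 (4601, 5237 and 4096). Ppara had 0, 0 and 3.18 and Ppargc1a had 0, 1.09 and 1.06, and Mlxipl was not listed. Cholesterol synthesis genes were all present, 19 of 19 at a mean of 10 or more, with a median of 1518 and Hmgcs1 the highest by read count at 4755, 5311 and 6241.

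Genes of energy metabolism were present across the pathways examined. Mitochondrial fatty acid oxidation had 14 of 19 genes at 1000 or more, with the entry enzyme Cpt1a at 13148, 11073 and 10394 and the trifunctional enzyme subunit Hadha at 11375, 10793 and 11232. The muscle form Cpt1b had 4.9, 0 and 2.12, and the brain form Cpt1c had 0, 2.17 and 4.24. In glycolysis 15 of 27 reached 1000, led by Gapdh (48398, 47199.5 and 55306), Aldoa (42871, 49164 and 55177), Pkm (31168, 28225 and 36226) and Ldha (15962, 17247 and 19580.1). The liver and red cell pyruvate kinase Pklr had 0 reads in every library, and the insulin-regulated glucose transporter Slc2a4 had 3.92, 2.17 and 3.18. The pyruvate dehydrogenase and tricarboxylic acid cycle list had 20 of 22 genes at 1000 or more, with Ogdh at 12428, 11548 and 10211. Fbp1, a gluconeogenic enzyme, stood apart from all of these with 869.8, 0 and 4.24, that is, present in replicate 1 and almost without reads in the other 2.

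The mitochondrial genome gave levels that cannot all be read at face value. Some of its genes share none of their windows with another annotated gene: mt-Nd1 with 135609.6, 125575 and 149313, mt-Cytb with 145929, 128315 and 156662, and mt-Nd6 with 25136, 21608 and 29441. The gene mt-Nd4 was also high, with 78248, 71470.2 and 90979.6, although 62.2% of its windows are shared. In contrast mt-Co2 had 31.4, 30.4 and 30.8, mt-Co3 23.5, 17.4 and 15.9 and mt-Atp6 32.4, 13 and 39.2, and 99.5% to 100% of their windows occur in another annotated gene. mt-Nd3 and mt-Nd4l, with 98% and 98.8% shared, had means of 3.14 and 0.689. The gene mt-Atp8, which overlaps mt-Atp6, had 0.981, 0 and 2.12 with 0% of its windows shared. Only annotated transcripts were searched, so this value cannot tell whether its sequence recurs elsewhere in the genome. How reads that match several places were counted is not given in the sources used here, and the levels of these 6 low genes are not interpreted.

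Lysosomal genes were abundant. Of 19 genes in the protease list 11 had a mean of at least 10000, and the median was 12661. After Ctss came Ctsd with 108611, 113344 and 151175, Ctsb with 65714, 73013 and 72655 and Ctsz with 38185, 61004 and 52516. The osteoclast-associated cathepsin Ctsk had 24742, 25389.7 and 26729, even across libraries. Ctse and the neutrophil protease gene Ctsg had 0 reads in every library, and the lymphocyte form Ctsw had 0, 3.26 and 0. The membrane and proton pump list had 22 of 24 genes at 1000 or more. Its 2 members under 10 were Lamp3 (2.94, 2.17 and 5.3), of type 2 alveolar cells and mature dendritic cells, and Atp6v1b1 (0.981, 0 and 0), of specialised epithelia.

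Receptors for particles and dying cells were led by Axl, Lrp1, Marco and Scarb2. The receptor tyrosine kinases for dying cells were unequal: Axl had 49315, 42292 and 39824, Mertk had 16048, 11733 and 12468, and Tyro3 had 0.981, 3.26 and 1.06. Per length Axl reached 871 ± 152 TPM and Mertk 310.1 ± 71.4 TPM. Havcr1 had 0 reads. Among C-type lectins the beta-glucan receptor Clec7a had 65574, 54324 and 74598 and the dectin-2 gene Clec4n had 31632, 30872 and 47306. Clec4e (Mincle) had 7261, 18336 and 12454 and its neighbour Clec4d had 1885, 4835 and 4022, both lowest in replicate 1 and highest in replicate 2. Cd209d had 0 reads, and Mrc2 and Clec2i were under a mean of 10. Fc receptors were present with Fcer1g (30576, 38879 and 38628), Fcgr3 (15304, 14642 and 16817), the neonatal receptor Fcgrt (11185, 10258 and 13730.4) and the inhibitory Fcgr2b (8435, 9129.6 and 6821). The genes of the chains that bind IgE were not, with Fcer2a at 0, 1.09 and 0 and Fcer1a not listed.

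Microbial sensors were unevenly represented. Tlr2 had 44139.9, 45663 and 53252, and per length its 1570.3 ± 79.3 TPM exceeded the 85.4 ± 11 TPM of Tlr7 and the 39.8 ± 10.3 TPM of Tlr4. The endosomal chaperone Unc93b1 had 10229, 11778 and 13274, and Cd14, a lipopolysaccharide co-receptor, had 5315, 8583 and 6536, highest in replicate 2. Tlr4 had 2179.8, 2753 and 1704. Tlr1 and Tlr11 were under a mean of 10, and Tlr12 had 0 reads. The cytosolic sensors were all present at a mean of 100 or more, 14 of 14, led by Nlrp3 (3401, 4188 and 4575), Aim2 (2878, 2443 and 2963) and the inflammatory protease Casp1 (2094, 2652 and 2946). Nod2 had 155, 603 and 286, highest in replicate 2.

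Complement genes were split between receptors and components. Itgb2 was even at 71204, 74239 and 72855, and the C5a receptor C5ar1 had 15482, 15729 and 21103. C3, the central component, had 9489.9, 22878 and 7787, with replicate 2 at 2.94 times replicate 3. Cfp, properdin, had 4141, 4631 and 5363, while C1s1 and Cd55 were under 10 and Cfd was not listed.

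Genes of antigen presentation were present in every library. The MHC class II invariant chain Cd74 had 60261, 54712 and 34616, and H2-Ab1 had 14619, 14982 and 8867. H2-DMa, which loads peptides, had 11298, 10070.5 and 10857, and H2-Aa had 12548, 10979.9 and 7732. Cd74, H2-Ab1 and H2-Aa were lowest in replicate 3, as was their master regulator Ciita with 325, 214 and 142. H2-Eb2 had 4.9, 0 and 3.18. Class I genes were led by B2m (81961, 97882 and 92382), H2-D1 (55623, 56059 and 64536) and H2-K1 (28737, 37609 and 35712). Of costimulatory and checkpoint genes, PD-L1 (Cd274) had 4168, 7316 and 3914 and the inhibitory receptor Pirb had 10743, 14861 and 11009. Cd86 had 1642, 387 and 1971, with replicate 2 far below the other libraries, and Cd40 had 11.8, 42.4 and 22.3.

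Cytokine genes ranged from abundant to absent. Of 19 listed interleukin genes 4 reached a mean of 1000. The IL-1 receptor antagonist Il1rn had 9865, 15820.1 and 15524, and Il18 had 7406, 8567 and 9821. The inflammatory cytokine gene Il1a had 3391, 21616 and 11209.5, and Il1b had 3209, 18252 and 12425, both lowest in replicate 1. Il5, Il13 and Il17a had 0 reads in every library. Il6 was low, with 21.6, 94.5 and 26.5. Among other cytokines, Spp1 (osteopontin) had 25278, 22307 and 53577, highest in replicate 3, and Tgfb1 had 16541, 15085 and 16156. Tnf had 4045, 22870.2 and 16664, and Gdf15, a stress-induced member of the TGF-beta family, had 5035, 7216 and 9059.9. Csf3, Ifna1 and Ifng had 0 reads in every library, although 67.4% of the windows of Ifna1 are shared with its relatives.

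Chemokine genes were led by Ccl6, which had more reads than all other members of its list together. Ccl3 had 5365, 22757 and 14591, Ccl9 1416, 12398 and 2075 and Ccl2 983, 2994 and 2864. The eotaxin Ccl11 and Ccl8 had 0 reads in every library, and Ccl19 was not listed. In the CXC list Cxcl2 had 2389.6, 29743 and 10709, Cxcl3 384, 12999 and 2313 and Cxcl1 168, 2688 and 1348. The membrane-bound fractalkine Cx3cl1, placed in this list, had 1808, 1606 and 1405, and Cxcl13 had 0 reads. Of 17 chemokine receptors 2 reached 1000, Cxcr4 with 8652, 6034 and 7887 and Ccr1 with 5481, 6772 and 7065. The monocyte receptor Ccr2 had 222, 172 and 216, and Ackr3 had 0 reads.

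Genes used to grade macrophage activation differed widely in level within each kind. Of the alternative activation genes, Chil3 and Mrc1 were very high and the IL-4 receptor Il4ra had 6416, 6035 and 4702, whereas Arg1 (arginase) had 21.6, 16.3 and 4.24 and Retnla 31.4, 1.09 and 0. Of the classical ones Tnf was above 1000 in every library. Nos2, the classical activation gene for inducible nitric oxide synthase, had 0 reads in every library. Interferon-stimulated genes were modest, with a median of 151 and 4 of 26 at 1000 or more, among them Stat2 (1565, 1511 and 1149.6), Bst2 (956, 1534 and 1619) and Gbp2 (1029, 1691 and 1048).

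Antioxidant and iron genes were abundant. The metallothionein Mt1 had 35284, 36184 and 67352 and peroxiredoxin Prdx1 26316, 37314 and 51828, both highest in replicate 3. The NADPH oxidase subunit Cybb had 38195, 58531 and 31975, highest in replicate 2, and the glutathione peroxidase Gpx1 had 22390.1, 28452 and 27633. Mpo, the myeloperoxidase of neutrophils, had 0 reads. Ferritin light chain Ftl1 had 24983, 28783 and 43463, with 58.4% of its windows shared, and the biliverdin reductase Blvra had 5978, 6179.8 and 7775. The iron hormone gene Hamp had 1.96, 10.9 and 5.3.

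Secreted and surface proteins that act on the matrix were also present. Fn1 and the urokinase receptor Plaur (22045, 20401 and 23057) led the matrix list. The coagulation factor genes F7 (15864, 17095 and 16179) and F10 (10001, 12104 and 10102) were abundant, whereas Plat had 1.96, 1.09 and 1.06 and Mmp3 had 0 reads. In the integrin list Itgb2, Itgax, Itgb1 (17022, 18356 and 16456) and Itgal (18950.3, 14992 and 14253) were highest, and Itga2 and Itga8 were near 0. The adhesion genes Cd44 (67958, 60359 and 61557) and Ctnnb1 (24235, 18382 and 22028) were abundant, and Cdh1, E-cadherin, had 1953, 2185 and 1544, whereas Cdh2 and Cdh5 were under a mean of 10. The leukotriene pathway was carried by Alox5 (11606, 9171 and 8719), Alox5ap (4784, 4503 and 6323) and Lta4h (4393, 4393 and 4644), and the thromboxane synthase Tbxas1 had 5919.6, 6283 and 6818. The prostaglandin synthase genes Ptgds and Ptgis were under 10.

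Cell division genes were present in all 3 libraries. All 22 of 22 members of the proliferation list had a mean of at least 100, with a median of 1242 against 320.2 over protein-coding genes. Mki67, which marks cycling cells, had 3882, 3643 and 3182, and Pcna, the DNA polymerase clamp, had 6086, 6725 and 7228. The replication helicase genes followed, Mcm3 with 2024, 2818 and 2274 and Mcm6 with 1928, 2554 and 2346. None of these genes spanned a factor of 2 between libraries. Of cell cycle control genes the inhibitor Cdkn1a had 8091, 7977 and 9382 and the cyclin Ccnd2 6369, 8778 and 4823. Ccnd1 was low at 37.3, 21.7 and 44.5, and Mycn had 0 reads.

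The Y-linked genes Eif2s3y (2714, 3107 and 2799), Ddx3y (2139.6, 1795 and 1545), Kdm5d and Uty were present in every library. Xist, expressed from the inactive X chromosome of females, had 0, 9.78 and 0. All 3 libraries were thus alike in these genes, apart from the few Xist reads of replicate 2.

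Markers of other cell types ranged from absent to abundant, and more of them had a mean under 10 than above it. Of 156 markers in 19 lists, 141 were listed, 17 had 0 reads in every library, 79 had a mean under 10, 25 of at least 100 and 12 of at least 1000. Over all listed protein-coding genes 72.2% reached a mean of 10. That level was reached by 6 of 8 listed neutrophil genes (75%), 8 of 9 dendritic cell genes (88.9%) and 7 of 9 general epithelial genes (77.8%). It was reached by 1 of 10 T cell genes and by none of the natural killer or red blood cell genes. In the T cell list Cd4 was highest with 20.6, 0 and 9.54 and Cd8b1 had 0 reads. In the B cell list Cd22 had 5192, 5103 and 4499, while Pax5 and Blk, which help define B cells, had 0 reads. The natural killer cell list summed to 4.9, 6.52 and 10.6, with Gzma, Eomes and Klra8 at 0. Red blood cell genes summed to 16.7, 9.78 and 11.7. Of the eosinophil genes Ccr3 had 5.88, 0 and 0, Il5ra had 0 reads, and Prg2, Prg3 and Epx were not listed, so the ribonuclease genes Ear1 and Ear2 were high without other eosinophil genes.

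Epithelial and endothelial lists showed the same split. Epcam had 4871, 4279.6 and 3983, Krt19 17693, 25172 and 25286 and Cdh1 1953, 2185 and 1544, and Krt19 and Cdh1 are also in the resident list above. Other keratins of simple epithelium were low, Krt8 with 7.84, 6.52 and 28.6 and Krt18 with 13.7, 15.2 and 23.3. In the endothelial list Vwf, von Willebrand factor, had 2281, 2323 and 2092, while Kdr, Tie1 and Ramp2 had 0 reads and Pecam1 had 17.7, 5.43 and 7.42. The ciliated cell gene Tppp3 had 8241, 9600.1 and 7796, whereas Foxj1, the factor that defines ciliated cells, had 24.5, 28.2 and 22.3. Type 2 alveolar genes were led by Abca3 (1745, 1478 and 1144) and the protease Napsa (1247, 1241 and 1448), while Sftpc, the surfactant protein by which type 2 cells are defined, had 46.1, 36.9 and 41.4. Pdpn led the type 1 list with 887, 872 and 841, and Ager had 78.4, 41.3 and 63.6.

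Other lists held traces that differed between libraries. The airway secretory genes Bpifa1 (55.9, 243 and 209) and Scgb1a1 (34.3, 163 and 166) were lower in replicate 1 than in the other libraries. Col1a1 had 19.6, 34.8 and 200.4, highest in replicate 3, and in the fibroblast and smooth muscle list Acta2 was highest by read count at 115, 209 and 179 and Lum had 0 reads. Dendritic cell genes were led by Clec9a (461, 137 and 382), with Siglech at 0, and monocyte genes by Treml4, with Ly6c2 at 0, 15.2 and 0. Muscle genes summed to 38.2, 159.7 and 63.6, highest in replicate 2, where Tnnt2 led the list with 8.83, 65.2 and 17 over the 3 libraries, and Myh1 had 0 reads. The neuronal list was led by Tubb3 (46.1, 39.1 and 29.7), with Syt1 and Gad1 at 0, and the liver list by Alb (12.7, 30.4 and 21.2). Platelet genes were led by Pf4 (42.2, 267 and 81.7).

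**Figure D3:**
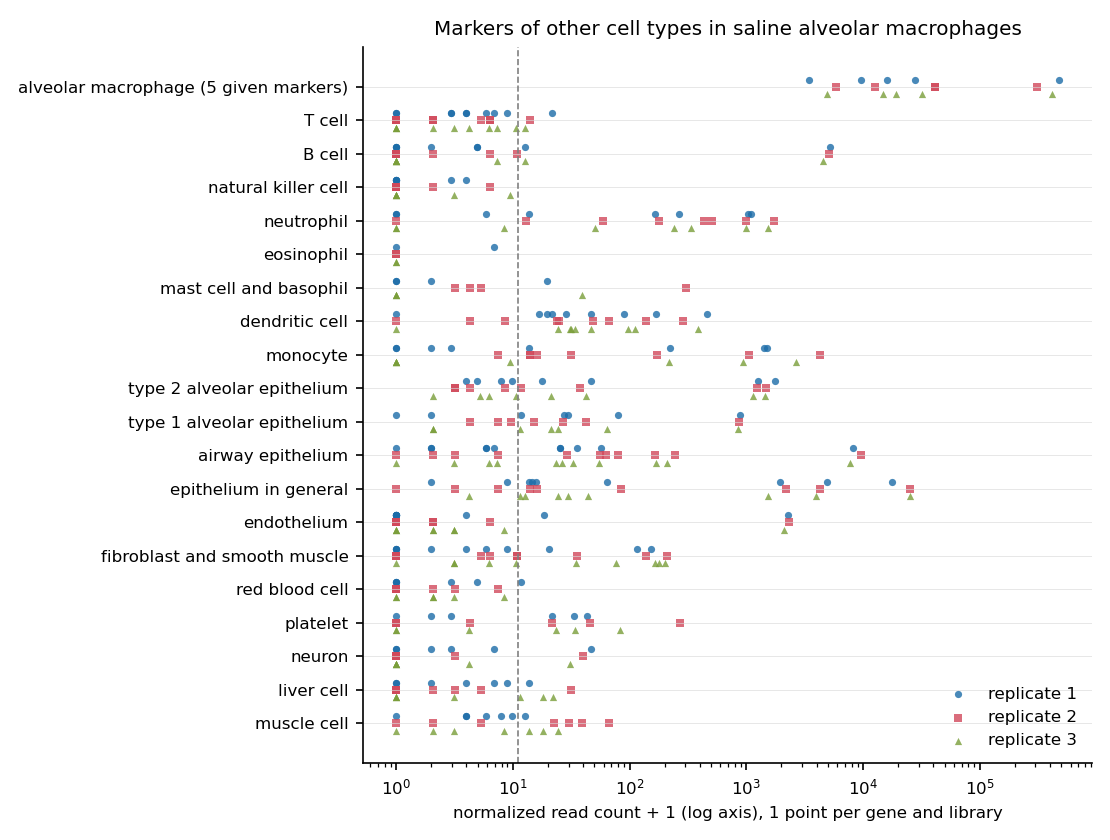
Normalized read count + 1 (x axis, log scale) of the markers of 19 other cell types in the 3 saline libraries, 1 point per gene and library, with the 5 alveolar macrophage markers on top. The dashed line marks a count of 10, and 79 of the 141 listed markers of other cell types have a mean to its left. Most listed neutrophil, dendritic cell and general epithelial genes have a mean to its right, as do 72.2% of all listed protein-coding genes.

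Replicates differed by more than counting alone gives, at every level of abundance. Over the 9840 genes with a mean of at least 100 the median coefficient of variation was 12.7%, against 3.16% from counting. It was 14.9% for means from 100 to under 1000, 11% from 1000 to under 10000 and 12.2% from 10000 to under 100000, where counting gives 5.01%, 2.19% and 0.808%. For genes from 10 to under 100 it was 33.0%, against 19.4% from counting. Log2 levels of the 9840 genes correlated across genes at 0.970 (replicates 1 and 2), 0.979 (1 and 3) and 0.978 (2 and 3), where genes are not independent replicates. Part of the difference moved with transcript length: the log2 difference between replicates 1 and 3 correlated with log2 exon length at 0.48 across genes, that between 1 and 2 at 0.27 and that between 2 and 3 at 0.15, longer transcripts being higher in the first of each pair. The part of length in the spread of single genes was not tested, and with each library's length trend removed the median coefficient of variation was 11.5%.

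Genes are called variable here when their mean was at least 100 and their highest library held at least 2 times the lowest. There were 451 such genes, 4.58% of the 9840. The highest value was in replicate 2 for 211 of them (46.8%), in replicate 1 for 149 and in replicate 3 for 91. Over all 9840 genes replicate 2 was the highest in 29.6%. Without replicate 2, 159 genes were variable, 156 of them from the same 451, without replicate 1 there were 226, and without replicate 3 there were 293. A pair of libraries gives fewer such genes than 3 by construction.

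**Figure D4:**
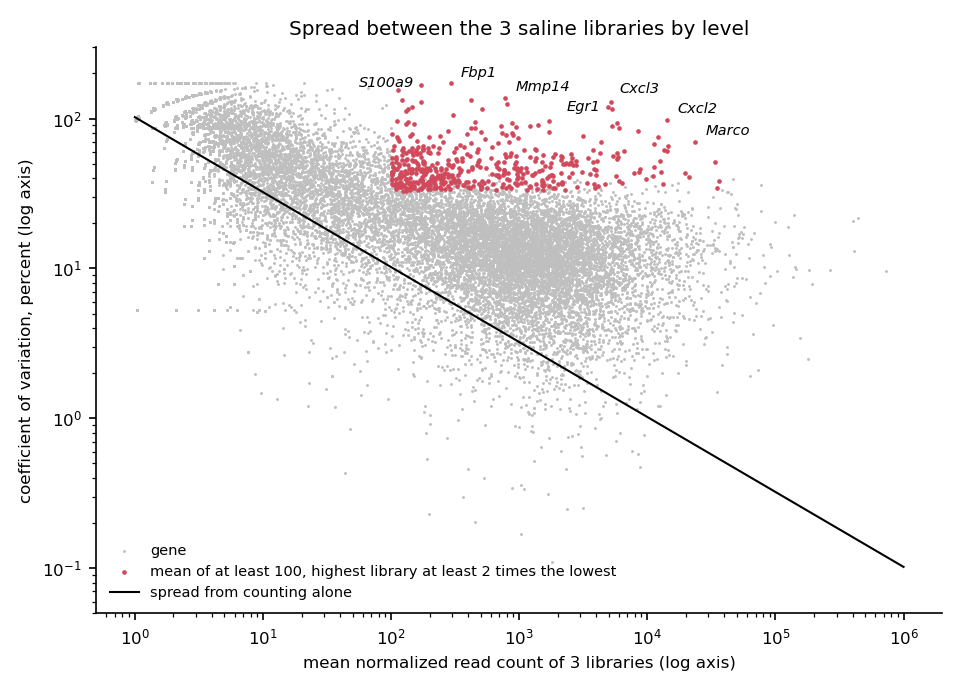
Coefficient of variation of the 3 saline libraries (y axis, percent, log scale) against mean normalized read count (x axis, log scale), 1 point per gene, with the 451 variable genes in red and the spread from counting alone as a line. Most genes with a mean above 100 lie above the line, and Marco, Cxcl2 and Cxcl3 are variable at high level.

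The 20 genes with the highest coefficient of variation among the variable ones are named here. After Fbp1, described above, came S100a9, a calcium-binding alarmin of neutrophils, with 4.9, 503 and 7.42. Lcn2, the iron-trapping lipocalin, had 14.7, 319 and 8.48, and Mmp14, a membrane-bound matrix protease, had 126, 2019.7 and 191. In all 3, replicate 2 was far above both other libraries. The chemokine Cxcl3 had 384, 12999 and 2313, the itaconate-producing enzyme Acod1 127, 1953 and 336, and the transcription factor Egr1 1228, 11719 and 1881. Hdc, which makes histamine, had 18.6, 305 and 38.2, and Hp, haptoglobin, had 82.4, 1071 and 119. The others of the 20 were Gpr84, Aoah, Ikbke, Adgre4, Ccl9, Il1f9, Lad1, Cxcl2, Pde4b, Apol8 and Ptgs2, each highest in replicate 2.

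Neutrophil markers moved in part with this pattern. The 8 listed genes of the neutrophil list summed to 2565, 3919 and 3149.7, highest in replicate 2. S100a8 had 166, 434 and 239, Csf3r 1029.6, 1734 and 984 and Retnlg 0, 12 and 0, whereas Mmp8 had 1088, 998 and 1536 and Cxcr2 264, 179 and 334, both lowest in replicate 2. Camp had 0 reads, and Ly6g, Ngp and Elane were not listed. In the monocyte list Ly6c2, Cd177 and Plac8 were also highest in replicate 2, at 15.2, 13 and 6.52 against at most 1.96 in the other libraries. Other members of that list did not follow: Ccr2 was lowest in replicate 2 with 222, 172 and 216, Ace had 1493, 1054 and 935, and Cx3cr1 was near 10 in each library. The part of other cells in the genes that were high in replicate 2 was not tested.

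Immediate early genes are transcribed within minutes of a stimulus, and heat shock genes respond to damaged protein. The list that joins both, of immediate early and stress genes, had the most variable members among the 50 functional lists. Of 28 with a mean of at least 100, 15 were variable, 14 of them highest in replicate 2, against 4.58% of all genes of that level. Dusp1, a phosphatase that ends MAP kinase signals, had 3812, 16307 and 5043. Of the AP-1 subunits, Junb had 5880.4, 16716 and 11418, Jun 4006, 9693 and 4048, and Fos 3204, 7166 and 2506. Zfp36, which degrades cytokine transcripts, had 7527, 20109 and 10253, and the NF-kappaB inhibitor Nfkbia had 4078, 10814 and 11253, the last alike in replicates 2 and 3. The heat shock gene Hspa1a had 169.6, 2311 and 1132 and its near copy Hspa1b had 408, 3152 and 1561, with 66.3% and 62.3% of their windows shared with another gene. Not all members went this way: Atf3 had 12516, 8664 and 13627 and Nr4a1 had 8317, 4472 and 8126, both lowest in replicate 2. Without replicate 2, 4 members were variable, without replicate 1, 8, and without replicate 3, 15.

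Chemokine lists showed a similar order of libraries, and the cytokine lists did so only in part. In the CC list 6 of 9 genes with a mean of at least 100 were variable, 4 highest in replicate 2, and in the CXC list 6 of 8, 5 highest in replicate 2. Over all genes of that level 4.58% were variable, and 46.8% of the variable genes were highest in replicate 2. Ccl7 and Cxcl10 were highest in replicate 3, and Ccl17 was highest in replicate 1 with 736, 357 and 169. The other cytokines and growth factors had 7 variable members of 15, 1 highest in replicate 1, 3 in replicate 2 and 3 in replicate 3. Csf1, the growth factor of the macrophage lineage, was lowest in replicate 2 and highest in replicate 3, with 698, 404 and 1257. Without replicates 1, 2 and 3 in turn, 3, 5 and 4 members of that list were variable. Il1a, Il1b, Tnf, Ccl3 and Cxcl2 were lowest in replicate 1, intermediate in replicate 3 and highest in replicate 2. Without replicate 2 the chemokine lists together had 9 variable genes against 12 with it, and without replicate 1 they had 6. Interferon-stimulated genes had 7 variable members of 18, against the same 4.58%, all 7 lowest in replicate 1, and 0 without replicate 1. Rsad2 (viperin) had 74.5, 373 and 257.

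**Figure D5:**
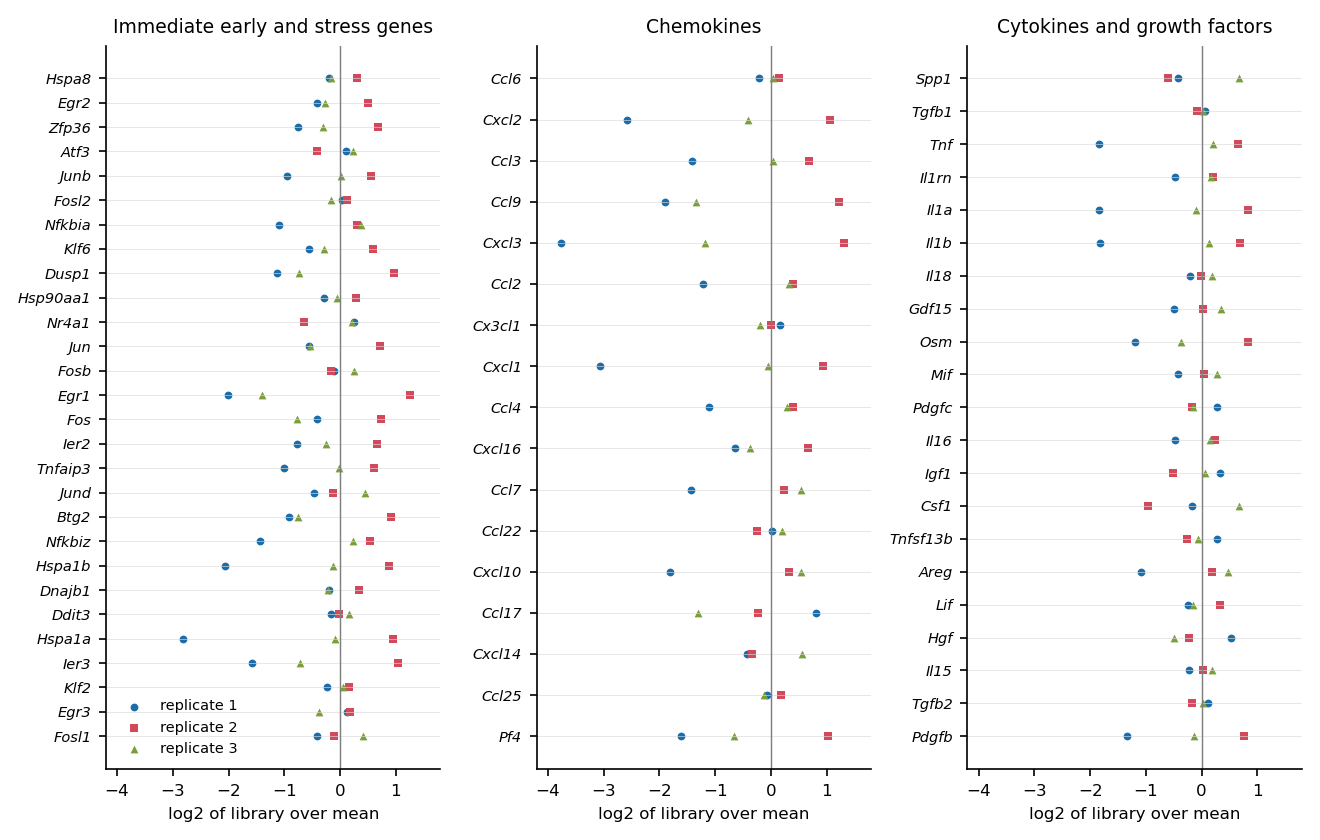
Log2 of each saline library over the mean of the 3 (x axis) for genes with a mean of at least 100, 1 row per gene and 1 point per library. In many rows replicate 2 lies to the right and replicate 1 to the left, most widely for Cxcl3, Cxcl1 and Hspa1a.

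Abundant genes were not exempt from this spread. Of the 500 genes with a mean of at least 10000, 17 were variable. They were 3.51% of the 484 genes with a mean under 100000, against 4.58% of all genes with a mean of at least 100. Of the 16 genes above that level 0 were variable. The 17 included Tgfbi, Hmox1, Spp1, Marco, Mir6236, Tnf, Cxcl2, Ccl3, C3, Zfp36l2, Clec4e, Zfp36, Il1a, Junb, Il1b and Gadd45g. Mir6236 was counted above with the features of the ribosomal RNA repeat. It had 13530, 15821 and 29278, highest in replicate 3 as CT010467.1 was. Tgfbi, a matrix adhesion protein, had 30702, 51799 and 25867, highest in replicate 2. Gadd45g had 13077, 5829 and 14157, lowest in replicate 2. For 4 of the 17 the mean moved by more than 1.5 times when replicate 2 was left out: Marco from 23485 to 14406, Cxcl2 from 14281 to 6549, Il1a from 12072 to 7300.2 and C3 from 13385 to 8639. Leaving out replicate 1 or 3 moved none of the 17 by that much.

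At the other extreme some genes differed by less than 1% between libraries. Spata6 had 1315, 1312 and 1314, Ccm2 1814, 1813 and 1810.3 and Wdr75 1028, 1031 and 1029.8. The others of the 10 evenest genes were Epsti1, Nudt12, Lmbrd1, P2ry6, Lrrc24, Ccz1 and Blmh. Their spread is smaller than the 1.82% to 7.28% that counting alone gives at their levels, as some of 9840 genes will be. Among housekeeping genes Tbp had 783, 784 and 744, and none of the 17 in that list was variable.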

How the data were processed

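Total RNA of plate-adherent lavage cells was sequenced, according to the protocols in the labels. The aligner STAR (2.5.2b), the read counter HTSeq (0.6.0), bcl2fastq (2.18.0.12), DESeq2 and the build mm10 appear in the submitters' processing notes. What each tool did, which annotation was used, whether counting used strand, and how reads with several matches were treated are not stated there, so overlapping genes and near copies are uncertain. The deposited values are a normalized signal made by the authors. Dividing by the smallest value above 0 gave whole numbers for 100% of the values in each saline library (within 0.05 of a read), so each value is a whole number of reads times a constant of its library.

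Samples were grouped by the labels' treatment, and the 3 saline columns were used. Symbols and exon lengths came from a GENCODE annotation (GRCm38, equivalent to mm10) and matched 22884 of 22962 identifiers. Means, SDs and coefficients of variation were computed with Python 3.11.15 and pandas 2.3.3, and the spread calculation was tested on simulated counts. With 1 group no test was made. The spread from counting is what the recovered reads alone would give. Shared sequence is the percent of a gene's 50-base exon windows that also occur in another annotated gene. TPM was computed over protein-coding genes, with the joined exons of all annotated transcripts of a gene as its length.

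The libraries, gene lists and limits were chosen with earlier results of these data known. By rule the text names the 30 highest genes by mean, the 15 highest nuclear genes per length, the 5 markers, up to 4 leading members of each functional list and those needed to account for members under 10, the highest member and those at 0 reads in lists of other cells, the 20 most and 10 least variable genes, and 3 families in full. Other genes were named after their values were seen. Alternatives were scaling to total reads, TMM factors (edgeR 4.0.16 in R 4.3.3), median-of-ratios factors, other limits, reads per length, and leaving out each library. Removal of the length trend, and the counts of variable members and means of abundant variable genes without each library, were added after seeing the data. Some members of the lists are counted in the totals but are not reported here.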

Additional observations from a re-analysis of the deposited data

How the results depend on the processing

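The count of genes with a mean of at least 10 was 12981 to 13013 under other scalings and with 1 library left out, and 12089 when 10 was asked of every library. With minimum means of 5 and 20 it was 14324 and 11860. Scaling to total reads, TMM and median-of-ratios factors moved none of the 4 summary results by more than the limits used. The share of the 10 highest genes was 18.4% per kilobase of exon and between 10.2% and 10.5% under the other alternatives. The median coefficient of variation was 9.41% to 11.3% when 1 library was left out, 15.4% with a minimum mean of 10, 11.1% with a minimum of 1000 and 11.5% with the length trend removed. Variable genes numbered 159 to 293 when 1 library was left out, which has fewer libraries to differ, 670 with a minimum mean of 50, 126 with a minimum mean of 1000 and 132 with a factor of 3. With the length trend removed 419 genes were variable, 381 of them among the 451. Marco had a mean of 14406 without replicate 2 and 30439 without replicate 1, and the other 4 markers moved by at most 1.14 times when 1 library was left out. The number of list members at a mean of 10 moved by at most 1.5 times in 60 of 69 lists when that minimum was asked of every library.

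No paired analysis was possible because 1 group is described, no result comes from a test, and replicate numbers shared with the other treatment are not used. Groups of 3 are too small to test a single library as an outlier. At these depths 3 reads are worth 2.94 to 3.26 in a library, so levels under about 10 rest on few reads.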

Other observations

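Some gene groups were looked at after their values had been seen, and they are given as values with no test. Genes that respond to glucocorticoid hormones were not alike between libraries: of 11 with a mean of at least 100, 5 were highest in replicate 1, 5 in replicate 2 and 1 in replicate 3, and 3 were variable, where 4.58% of all genes of that level were. Fkbp5, a chaperone of the hormone receptor, had 10823, 2669 and 2469.9 in replicates 1, 2 and 3, and the transcription factors Klf9 and Zbtb16 had 1462, 585.6 and 561 and 23.5, 4.35 and 3.18. These 3 genes were highest in replicate 1, as was Tsc22d3 (3248, 2336 and 1947), whereas Sgk1 (59558, 81793 and 63639) and Dusp1 (3812, 16307 and 5043), which also respond to other stimuli, were highest in replicate 2, as were Angptl4 (1869.9, 3246 and 2325) and Cebpd (1194, 1485 and 1202). The receptor itself, Nr3c1, was even, with 3683, 3405 and 3212.

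Of 10 genes of the circadian clock with a mean of at least 100, 2 were variable, both highest in replicate 1, against 4.58% of all genes of that level. Per2 had 2014, 559.5 and 1494, and Nr1d1 had 1226, 393 and 435. Of the 10 genes, 6 were highest in replicate 1, 3 in replicate 2 and 1 in replicate 3. Per1, also in the glucocorticoid group, had 3262, 3858 and 2181 and Nfil3 2509, 4234 and 2156, both highest in replicate 2. Arntl, the activator of the clock, had 585, 680.1 and 472, and Dbp, a clock output gene, was low with 12.7, 21.7 and 12.7. The labels do not state the hour of collection.

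The matrix metalloelastase Mmp12 had 1686, 405 and 533 and was highest in replicate 1. In the family of sialic acid receptors Siglec1, the adhesion receptor sialoadhesin, had 12316, 7844 and 6903, Cd33 had 7984, 7109 and 6020, and Siglece had 1704, 3269 and 1859. Siglec1 and Cd33 were thus highest in replicate 1 and Siglece in replicate 2, and per length Siglecf stood at 522 ± 85 TPM (SD, n = 3).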
